A study of Rattus norvegicus with 30 samples.

Results

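Integrins, cadherins, claudins and connexins are the surface proteins by which cells hold to matrix and to each other, and 81 of the 9999 gene names in these rat expression files belong to them. Membership goes by gene name: integrin alpha and beta subunits, cadherins, clustered and other protocadherins, claudins, connexins and tight junction proteins (Tjp). Mesenchymal stem cells from the bone marrow of 3 female Sprague Dawley rats, 3 weeks old, were grown to passage 2 and then kept in osteogenic (OS), adipogenic (AD) or chondrogenic (CH) medium for 3, 12 or 72 h. Control samples (CON, called 0 h here) complete 10 groups of 3 samples each, 30 in all. Each sample was pooled from 3 cultures before RNA isolation, so the tests below measure the spread between such pools and not between animals. The media were commercial mixtures, so a difference between media cannot be assigned to 1 of their components.

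Integrins are pairs of an alpha and a beta subunit that bind matrix proteins outside the cell and the actin skeleton inside it. Cadherins join like cells through calcium-dependent contacts, clustered protocadherins give cells a combinatorial surface identity best known in neurons, claudins seal or open the space between cells, and connexins form the channels of gap junctions. Stromal cells of the marrow are known for contacts through cadherin-11, N-cadherin and connexin 43, and for matrix binding through integrins that share the beta 1 subunit.

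Values are CPM, each a whole number of reads divided by a total for its sample and scaled by a shared constant. Gene length has no part in them, so levels of different genes are not compared. The totals ran from 3899609 to 9046719 reads a sample (median 6579543). Between 38.9% and 71.4% of a sample's total falls on names in the files. A level under 3 reads, or 0.332 to 0.769 CPM depending on the sample, counts as the floor, and floors and intervals cover counting error only. A gene was tested where it reached 1 CPM in at least 3 samples, which 34 of the 81 members and 4363 of all 9999 names did. The 34 are 15 of 16 clustered protocadherins, 7 of 15 cadherins, 3 of 14 claudins, 3 of 11 connexins, 2 of 10 integrin alpha subunits, 2 of 5 integrin beta subunits, 2 of 8 other protocadherins and 0 of 2 tight junction proteins. Of the 34, 12 reached 1 CPM in all 30 samples, 14 had a mean under 1 CPM at 0 h, and Itga10 reached 1 CPM in samples of 1 group only, CH at 72 h. The 47 others never passed 8 reads or 1.8 CPM, and 28 of them had at most 3 reads in every sample.

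Low values in these files are not proof of a silent gene. Actb, which encodes the beta-actin of nearly all cells, was listed at no more than 39 reads in any sample, Vim at 10, Hsp90ab1 at 5 and Ppia at 3, while the ribosomal gene Rplp0 reached 54519 reads. The integrin subunit genes Itgav, Itga5 and Itga11, known from stromal cells, were listed at no more than 1, 3 and 4 reads. They are therefore given as listed at or near 0, with no statement on expression. N-cadherin (Cdh2) and Tjp1 are not among the listed names.

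Marker genes were read against the labels before the adhesion genes. Of 10 stromal markers, 6 are in the files and 4 were tested. Their summed level was 8732, 8316 and 8911 CPM at 0 h and 645.6, 741.1 and 801.2 CPM in AD, 4089, 3932 and 4006 CPM in OS and 3120, 2900 and 2850 CPM in CH at 72 h, and almost all of it came from Thy1, a surface glycoprotein of stromal cells. Of 10 chondrocyte markers, 8 are in the files, and their sum, mainly Sox9, was 46.8, 47.1 and 50.8 CPM at 0 h and 1516, 1277 and 1172 CPM in CH at 72 h. Comp, a cartilage matrix gene, was at 25.1, 20.3 and 19.4 CPM there, whereas the cartilage genes Acan and Col2a1 had at most 1 and 3 reads in any sample. Of 9 adipocyte markers, 7 are in the files, and their sum, mainly the lipase gene Lpl, was 721.8, 663.9 and 778.1 CPM at 0 h and 1163, 1389 and 3221 CPM in AD at 72 h. In OS at 72 h it was 1146, 1041 and 1145 CPM, near AD replicates 1 and 2, with the adipocyte regulator Pparg called higher (1.60), and in CH 14.9, 14.4 and 15.3 CPM. Of 9 osteoblast markers, 8 are in the files, and their sum, mainly the bone sialoprotein gene Ibsp, was 3.15, 2.93 and 3.18 CPM at 0 h, 4.92, 5.93 and 3.92 CPM in OS at 72 h and 321.3, 203.8 and 222.6 CPM in CH at 72 h. The osteoblast markers Sp7 and Alpl had at most 2 reads in any sample.

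Markers of other cell types were low, and some of them moved. The sum of the 5 listed of 14 haematopoietic and macrophage markers, among which Itgax is also an integrin member, was highest at 6.11 CPM, in AD 12 h replicate 3. The 3 listed of 10 endothelial markers, mainly Tek and Vwf, summed to at most 7.08 CPM, in OS 72 h replicate 3, and the 5 listed of 8 epithelial markers, mainly Epcam, to at most 0.663 CPM. Tek, a receptor of endothelial cells, rose in OS at 3 h (1.33) and 72 h (2.12) and in AD at 3 h (1.68), and was at 0.143, 0 and 0.91 CPM at 0 h and 5.37, 3.28 and 5.58 CPM in OS at 72 h. Vwf, the gene of von Willebrand factor, fell at 12 h in OS (-1.68), AD (-1.23) and CH (-1.09). Lyz2, a lysozyme gene of macrophages, rose in AD at 72 h (1.35), from 0 reads at 0 h to 1.42, 1.24 and 2.06 CPM. In bulk RNA, fewer cells of a type and less RNA per cell cannot be told apart, and the part that changes in cell composition have in the results below was not tested.

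Some libraries stand apart from their groups. AD 12 h replicate 1 had an adipocyte marker sum of 253.8 CPM beside 1094 and 1028 CPM in the other replicates, and AD 72 h replicate 3 had 3221 CPM beside 1163 and 1389 CPM. OS 3 h replicate 3 differed in fewer genes. Counts, and called differences of named members that lose their call or move by over 1.5 times without 1 of these 3 libraries, are given with and without it.

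The comparisons with 0 h ask how each medium moved these genes over time, and all of them use the same 3 control samples, so they are not independent of each other. A gene was called when limma gave a log2 difference of at least 1 either way on the scale log2(CPM + 1) and a Benjamini-Hochberg adjusted p under 0.05 over all 4363 genes. Differences are given as value ± standard error (SE). The added 1 makes differences of genes near 1 CPM smaller than the ratio of their CPM. A mean under 1 CPM at 0 h, as in 14 of the 34 tested members, leaves no room for a fall of 1 from 0 h. Rises have no such limit, and the limit holds for any tested gene that low at 0 h. Counts of members are set beside the share of all tested genes called, and nothing is called particular to the members from them. That share depends on the tool, since edgeR called more genes lower than limma in each of the 18 comparisons. In OS at 12 h limma called 312 of all genes lower and 640 higher, and edgeR 640 lower and 532 higher. In AD at 72 h limma called 396 lower and 270 higher, and edgeR 423 and 448. In CH at 12 h limma called 218 lower and 412 higher, and edgeR 403 and 355. For OS against AD at 72 h limma called 197 lower and 402 higher, and edgeR 407 and 287.

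In OS medium most called members were lower at 3 and 12 h, mainly clustered protocadherins, and most were higher at 72 h. Outside the clustered protocadherins, only Cdh23 and Gja1 fell at 3 h, and Cdh23, Gja1 and Gjb2 at 12 h. The rises were of Cldn1 and Itgax at 3 h and of Cldn1 and Itgb7 at 12 h. At 3 h, 11 of 34 tested members fell and 2 rose, against 6.67% of all genes lower and 11.7% higher, and the median log2 difference was -0.23 for members and 0.09 for all genes. At 12 h, 14 fell and 2 rose, against 7.15% lower and 14.7% higher, with medians of -0.70 and 0.09. At 72 h, 2 fell and 5 rose, against 5.29% lower and 7.2% higher, with medians of -0.24 and 0.08. With edgeR on the recovered reads the count at 72 h was 5 lower and 8 higher. Without OS 3 h replicate 3 the counts at 3 h were again 11 and 2.

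In AD medium falls were seen at 3 h and rises at 12 h. The falls at 3 h were of clustered protocadherins and Cdh23, and the rises of Pcdh20 and Cldn1. At 3 h, 6 members fell and 2 rose, against 6.42% of all genes lower and 12.4% higher, with medians of -0.24 for members and 0.15 for all genes. At 12 h, limma called 0 lower and 4 higher, against 5.55% and 8.14%, with 11 members at an unadjusted p under 0.05 in either direction, and edgeR called 1 lower and 4 higher. The medians at 12 h were 0.14 and 0.15, and without AD 12 h replicate 1 the counts were 0 lower and 6 higher. At 72 h, 3 fell and 4 rose, against 9.08% and 6.19%, with medians of 0.34 and -0.05. The split at 72 h depends on the scaling, since median-ratio scaling and an equal sum over the listed genes each gave 2 lower and 8 higher. Without AD 72 h replicate 3 it was 1 lower and 6 higher.

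In CH medium, 6 members fell and 4 rose at 3 h, against 4.88% of all genes lower and 13.1% higher, with medians of -0.15 for members and 0.21 for all genes. Of the 6 falls, those of Cdh23 and Gja1 lay outside the clustered protocadherins, as did all 4 rises. Median-ratio scaling and edgeR each gave 10 lower and 4 higher at 3 h. Without CH 3 h replicate 2 the counts were 7 lower and 2 higher, and without CH 3 h replicate 3 they were 9 and 3. At 12 h, 2 fell and 5 rose, against 5% and 9.44%, with medians of -0.01 and 0.11, and the scalings each gave 2 lower and 3 higher. At 72 h, 3 fell and 5 rose, against 6.37% and 11.6%, with medians of 0.17 and 0.01. The scalings also shift the median of all genes: with median-ratio scaling it moved from 0.21 to 0.00 in CH at 3 h, from 0.15 to 0.00 in AD at 3 h, and from 0.09 to -0.07 in OS at 12 h. An equal sum over the listed genes moved it from -0.05 to 0.11 in AD and from 0.01 to -0.13 in CH at 72 h.

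**Figure D1:**
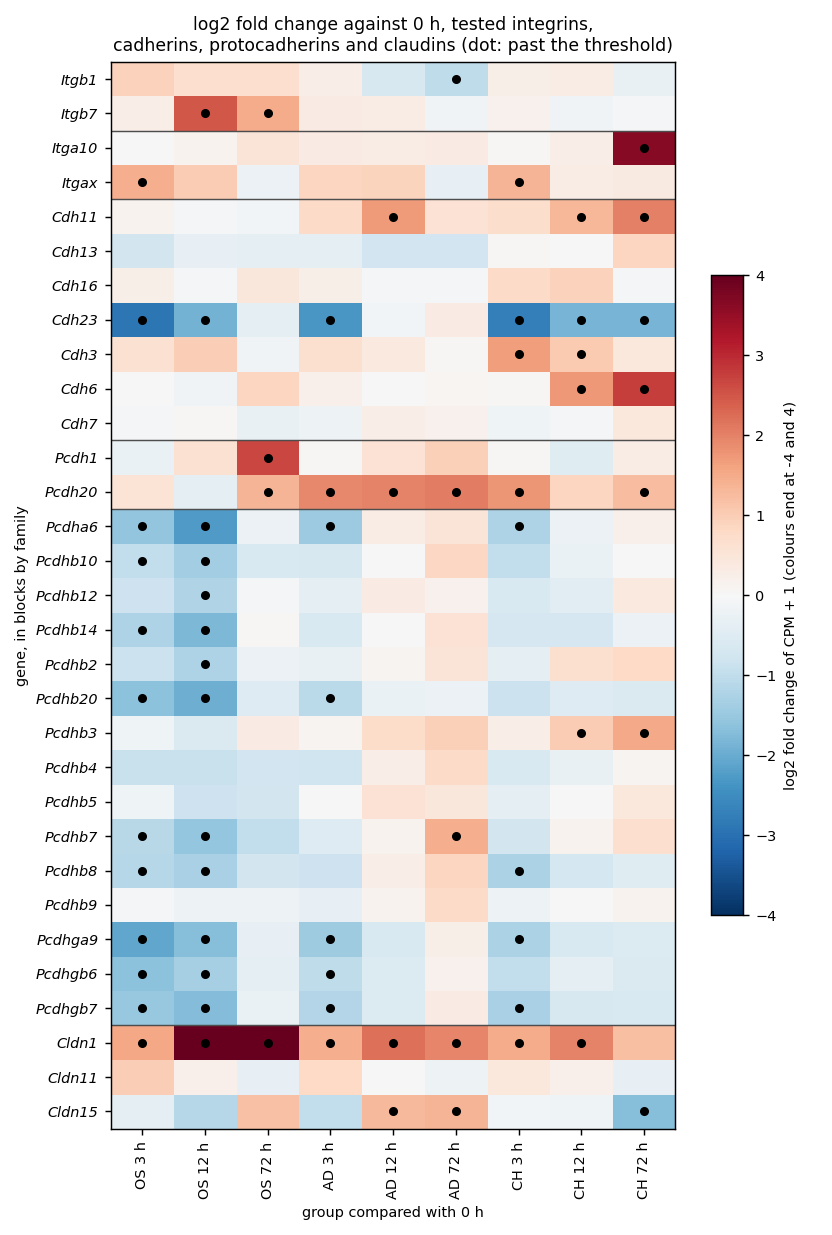
Log2 difference from 0 h, on log2(CPM + 1), of the tested integrins, cadherins, protocadherins and claudins (vertical axis, by family) in the 9 groups with a medium (horizontal axis), as colour, with a dot where limma called the difference. The largest differences are Cldn1 in OS at 72 h (5.02) and 12 h (4.76), past the end of the colours at 4, and Itga10 in CH at 72 h (3.65), and the clustered protocadherins have medians of -1.12 and -1.32 in OS at 3 and 12 h.

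Itgb1 encodes the beta 1 subunit, the partner of most matrix-binding alpha subunits. Its level at 0 h was 8160, 7769 and 7259 CPM, and in OS medium at 15250, 15550 and 12860 CPM at 3 h, 12280, 12110 and 12280 CPM at 12 h and 11540, 12310 and 13090 CPM at 72 h. In AD medium it was at 8799, 9354 and 9957 CPM at 3 h, 6033, 4522 and 4362 CPM at 12 h and 4133, 3911 and 3311 CPM at 72 h. All 9 OS samples lay above the 3 samples at 0 h, and the samples in AD at 12 and 72 h all lay below them. The log2 difference in OS was 0.91 at 3 h (SE 0.12), 0.66 at 12 h and 0.67 at 72 h, under the threshold of 1 each time although adjusted p was at most 6.26e-05. In AD it was -0.65 at 12 h, not called, and Itgb1 fell at 72 h, with a difference of -1.03 ± 0.12 (adjusted p = 4.21e-08). That call is lost with median-ratio scaling (-0.84), an equal sum over the listed genes (-0.77), edgeR (-0.87), without control replicate 1 (-0.99) and without AD 72 h replicate 3 (-0.94). In CH medium Itgb1 was at 8443, 9737 and 8890 CPM at 3 h, 9365, 11000 and 8362 CPM at 12 h and 6465, 6207 and 6317 CPM at 72 h. The differences there were 0.22, 0.30 and -0.29, none called, and the value at 3 h turned to -0.12 with median-ratio scaling.

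Itgb7, the beta subunit that pairs with alpha 4 and alpha E on lymphocytes, was near the floor at 0 h, at 0, 0.418 and 0.455 CPM. In OS medium it was at 0.47, 0.474 and 0.692 CPM at 3 h, 5.72, 5.68 and 6.86 CPM at 12 h and 2.98, 2.5 and 2.26 CPM at 72 h. It rose at 12 h by 2.47 ± 0.29 (adjusted p = 2.92e-08) and at 72 h by 1.49 ± 0.29 (adjusted p = 0.000194), with no overlap between groups. In reads, 121 over the 3 libraries at 12 h against 6 at 0 h is a ratio of 21 (95% interval 9.39 to 58.5). In AD and CH no sample passed 1.42 CPM.

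Itga10 encodes the alpha 10 subunit of a collagen receptor known from cartilage. It had 0 reads in the 3 samples at 0 h and was at 12.8, 12.2 and 9.78 CPM in CH at 72 h, with 149 reads over those libraries. In the other 27 samples it was at no more than 0.904 CPM. The rise in CH at 72 h was 3.65 ± 0.23 (adjusted p = 3.8e-14), and against a floor of 3 reads per library at 0 h the level was higher by at least 26.7-fold. Itga10 passed the filter through this group alone, so its difference there follows in part from the filter.

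Itgax, the alpha X subunit of myeloid cells and also on the list of macrophage markers, was at 0, 0.975 and 0.607 CPM at 0 h. It was at 2.66, 1.58 and 5.67 CPM in OS, 1.66, 1.89 and 1.49 CPM in AD and 3.9, 3.38 and 1.48 CPM in CH at 3 h. All 9 samples at 3 h lay above the 3 at 0 h. Itgax rose in OS by 1.44 ± 0.44 (adjusted p = 0.00863) and in CH by 1.35 ± 0.44 (adjusted p = 0.0127), and the difference in AD, 0.86, was not called. The OS call is lost without OS 3 h replicate 3 (1.07, adjusted p = 0.0791), without control replicate 1 (1.16, adjusted p = 0.0613) and with only the 6 samples of the comparison (adjusted p = 0.0515). The CH call is lost with edgeR (2.12, adjusted p = 0.0548) and without control replicate 1 (1.08), CH 3 h replicate 1 (1.16) or CH 3 h replicate 2 (1.24). In AD at 12 h the difference of 0.89 was not called and is 1.43 and called without AD 12 h replicate 1. The OS samples at 12 h, at 1.36, 2.69 and 1.98 CPM, also lay above 0 h. Their difference of 1.01 (adjusted p = 0.0607) was not called by limma with all samples. It is called with only the 6 samples of the comparison (adjusted p = 0.0381) and without control replicate 2 (1.22, adjusted p = 0.0467). The sum of the macrophage list moved with Itgax, from 0, 1.39 and 0.607 CPM at 0 h to 2.98, 1.74 and 5.81 CPM in OS, 3.54, 2.05 and 2.08 CPM in AD and 4.35, 3.38 and 2.95 CPM in CH at 3 h. Much of that sum is Itgax itself, and its part in the result was not tested.

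Cdh11, the cadherin of mesenchymal and bone-forming cells, separated the media. The level at 0 h was 524, 566 and 518 CPM, and in OS at 594, 676 and 515 CPM at 3 h, 500.3, 517 and 539 CPM at 12 h and 460.4, 494 and 547 CPM at 72 h. In AD it was at 884, 920.2 and 929 CPM at 3 h, 1590, 1830 and 1844 CPM at 12 h and 1052, 1006 and 491 CPM at 72 h. In CH it was at 836, 858 and 909.9 CPM at 3 h, 1432, 1255 and 1389 CPM at 12 h and 2226, 2133 and 2106 CPM at 72 h. The OS groups overlap with 0 h at all 3 times, with differences of 0.14, -0.05 and -0.10, and the value at 3 h turns to -0.10 with median-ratio scaling. Cdh11 rose in AD at 12 h by 1.71 ± 0.16 (adjusted p = 8.72e-10), in CH at 12 h by 1.34 ± 0.16 (adjusted p = 8.04e-08) and in CH at 72 h by 2.01 ± 0.16 (adjusted p = 1.57e-11). At 3 h the differences were 0.76 in AD and 0.69 in CH, under the threshold. In AD at 72 h replicate 3, the library that stands apart, lies below the 3 control samples, and the difference of 0.58 is 0.94 without it, not called either way.

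Cdh6, a cadherin of kidney and developing mesenchyme, had 2 reads in all over the 3 libraries at 0 h. In CH medium it was at 0.3, 0 and 0.123 CPM at 3 h, 2.17, 2.65 and 3.01 CPM at 12 h and 5.9, 7.52 and 5.78 CPM at 72 h. Every CH sample at 12 and 72 h lay above every sample at 0 h and at 3 h. The rises were 1.72 ± 0.22 (adjusted p = 1.71e-07) at 12 h and 2.75 ± 0.22 (adjusted p = 9.18e-12) at 72 h. Cdh6 reached 1 CPM only in samples of CH at 12 and 72 h and of OS at 72 h. Its differences in these groups therefore follow in part from the filter. The ratio of reads to 0 h was 26.9 (95% interval 7.08 to 228) at 12 h and 66.7 (17.9 to 560) at 72 h. In OS at 72 h it was at 0.746, 0.936 and 1.36 CPM, above the 3 control samples, with a difference of 0.87 that limma did not call and edgeR did (3.02, adjusted p = 0.0353). The chondrocyte marker sum was also high in CH, at 621.7, 627.7 and 561.3 CPM at 3 h and 632.2, 718.3 and 563.8 CPM at 12 h, and its part in the rises of Cdh6, Cdh11 and Itga10 was not tested.

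Cdh3, which encodes the placental cadherin, was under 0.3 CPM in each sample at 0 h and at 3.3, 2.06 and 3.07 CPM in CH at 3 h. It rose there by 1.66 ± 0.28 (adjusted p = 1.21e-05), and the ratio of reads to 0 h was 14.6 (95% interval 5.43 to 55.4). In CH at 12 h it was at 1.01, 1.25 and 2.38 CPM, again above 0 h, a rise of 1.06 ± 0.28 (adjusted p = 0.00295). That call is lost with median-ratio scaling (0.98), an equal sum over the listed genes (0.99) and without CH 12 h replicate 3 (0.84). By 72 h in CH it was at 0.513, 0.442 and 0.889 CPM. In OS it was at 0.157, 0.632 and 2.21 CPM at 3 h and 0.904, 1.64 and 1.52 CPM at 12 h, with overlap with 0 h at 3 h and none at 12 h. The differences of 0.62 and 0.97 were not called by limma, and edgeR called each (2.11, adjusted p = 0.0397, and 2.43, adjusted p = 0.0133). The difference in OS at 12 h is also called with a pseudocount of 0.1 (2.31) and without control replicate 1 (1.03) or OS 12 h replicate 1 (1.12).

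Cdh23, the tip-link cadherin of hair cells, fell early in all 3 media. At 0 h it was at 9.45, 12.9 and 11.2 CPM, and at 3 h at 0, 0.632 and 1.66 CPM in OS, 1.55, 0.629 and 2.38 CPM in AD and 0.599, 0.587 and 1.35 CPM in CH. All 9 samples at 3 h lay below the lowest sample at 0 h. The falls at 3 h were -2.89 ± 0.35 (adjusted p = 4.87e-08) in OS, -2.33 ± 0.35 (adjusted p = 2.27e-06) in AD and -2.74 ± 0.35 (adjusted p = 1.41e-07) in CH. Later the media parted: at 72 h Cdh23 was at 7.46, 8.27 and 9.49 CPM in OS, 15, 15.2 and 12.8 CPM in AD and 1.54, 3.1 and 2.67 CPM in CH. The CH samples were below 0 h at 12 h (-1.87) and 72 h (-1.85), both called. The OS and AD groups at 72 h overlap with 0 h, with differences of -0.37 and 0.34 that were not called. At 12 h it was at 1.36, 3.29 and 2.44 CPM in OS, a fall of -1.89 ± 0.35 (adjusted p = 3.84e-05), and at 6, 10.3 and 17.2 CPM in AD, which overlaps with 0 h. The other tested cadherins, Cdh7, Cdh13 and Cdh16, were at no more than 4.64 CPM in any sample and were not called against 0 h by limma. With edgeR, Cdh16 was called higher in CH at 3 h (3.46, adjusted p = 0.019) and 12 h (3.69, adjusted p = 0.0134). Cdh16 reached 1 CPM only in samples of these 2 groups, so its differences there follow in part from the filter. edgeR also called Cdh13 lower in OS at 3 h (-3.14) and in AD at 12 h (-3.78) and 72 h (-3.51). In limma Cdh13 passes the threshold without control replicate 3 in OS at 3 h (-1.04) and in AD at 12 h (-1.09) and 72 h (-1.09). It also does so in CH at 72 h without control replicate 1 (1.12) or CH 72 h replicate 1 (1.42), and Cdh16 in CH at 3 h without CH 3 h replicate 1 (1.01).

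**Figure D2:**
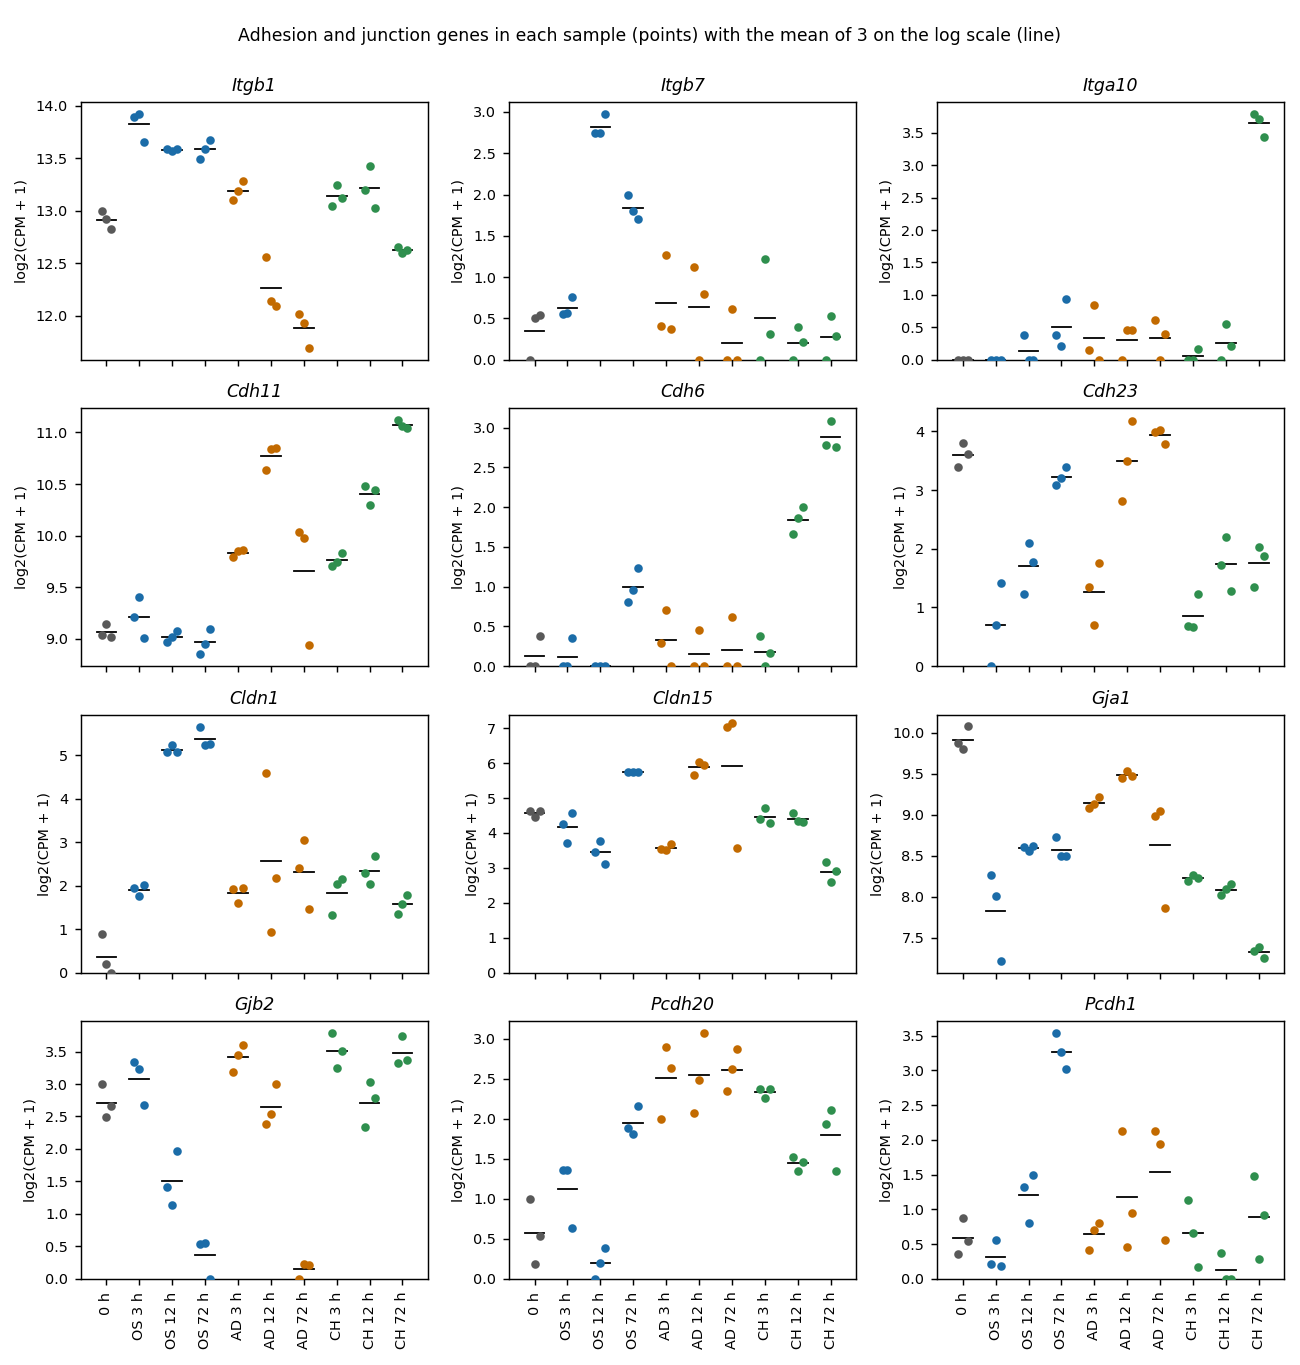
Log2(CPM + 1) in each of the 30 samples (points) for 12 members, with the 10 groups on the horizontal axis and the group mean as a line. Itga10 is above 9 CPM in the 3 CH samples at 72 h and under 1 CPM in the other 27, and AD 72 h replicate 3 is far below its group for Cldn15 (10.9 CPM beside 129 and 142).

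Of the 2 tested protocadherins outside the clusters, Pcdh20, known from the nervous system, rose in 6 groups. It was at 1, 0.139 and 0.455 CPM at 0 h, and in AD at 2.98, 6.45 and 5.21 CPM at 3 h, 3.22, 4.6 and 7.4 CPM at 12 h and 4.09, 5.14 and 6.34 CPM at 72 h. In CH it was at 4.2, 3.82 and 4.18 CPM at 3 h, 1.88, 1.56 and 1.74 CPM at 12 h and 2.82, 3.32 and 1.56 CPM at 72 h. In OS it was at 1.57, 1.58 and 0.553 CPM at 3 h, 0, 0.149 and 0.305 CPM at 12 h and 2.69, 2.5 and 3.46 CPM at 72 h. The AD and CH samples lay above 0 h at every time, and the OS samples did so at 72 h but overlapped with 0 h earlier. The rises in AD were 1.93 ± 0.29 (adjusted p = 2.02e-06) at 3 h, 1.97 at 12 h and 2.04 at 72 h. In CH they were 1.76 ± 0.29 (adjusted p = 7.93e-06) at 3 h and 1.22 at 72 h, and in OS 1.37 ± 0.29 (adjusted p = 0.000385) at 72 h. The difference in CH at 12 h, 0.87, was under the threshold, and is called with edgeR (1.46) and without control replicate 1 (1.08).

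Pcdh1, a protocadherin known from airway epithelium, was at 0.286, 0.836 and 0.455 CPM at 0 h and at 10.6, 8.58 and 7.08 CPM in OS at 72 h. The 3 OS samples at 72 h lay above all other samples of the study. The rise was 2.68 ± 0.37 (adjusted p = 1.25e-06). In AD at 72 h it was at 3.38, 2.84 and 0.475 CPM, with a difference of 0.95 that was not called and that is 1.44 and called (adjusted p = 0.00242) without replicate 3. It is also called with median-ratio scaling (1.10), an equal sum over the listed genes (1.14), edgeR (2.16) and without control replicate 2 (1.09).

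The clustered protocadherins, genes that lie in arrays and share sequence, had their lowest medians against 0 h at the early times in OS. Reads of such similar genes can be assigned to the wrong neighbour, so the 15 tested members are not independent measurements. Of the 15, 9 fell at 3 h (6.67% of all genes lower) and 11 at 12 h (7.15%) in OS, with median log2 differences of -1.12 and -1.32, and Pcdhb3, Pcdhb4, Pcdhb5 and Pcdhb9 were called at neither time by limma with all samples. Pcdhb9, under 1 CPM in each sample at 0 h, was too low there to fall by 1 on log2(CPM + 1). At 72 h in OS limma called 0 of the 15 (median -0.32), beside 5.29% of all genes lower and 7.2% higher. At an unadjusted p under 0.05 there were 6, and edgeR called 3, all lower. In AD, 5 fell at 3 h (median -0.63, 6.42% of all genes lower) and 1 rose at 72 h (median 0.52, 6.19% of all genes higher). At 12 h in AD limma called 0, beside 5.55% of all genes lower and 8.14% higher, with 4 at an unadjusted p under 0.05 and 0 by edgeR. Pcdhb3 is called higher there without AD 12 h replicate 1 (1.05) or control replicate 2 (1.07). The median in AD at 12 h was 0.13 and turns to -0.06 with median-ratio scaling. In CH, 4 fell at 3 h (median -0.73, 4.88% of all genes lower), and 1 rose at 12 h (median -0.30, 9.44% of all genes higher), which neither scaling nor edgeR called. At 72 h in CH 1 rose (11.6% of all genes higher), with a median of 0.12 that turns to -0.03 with an equal sum over the listed genes. Scaling raised the early counts: with median-ratio scaling 12 fell in OS at 3 h, 13 in OS at 12 h and 8 in CH at 3 h. It also raised the count in AD at 72 h from 1 to 4 higher, with Pcdhb3 (1.13), Pcdhb8 (1.04) and Pcdhb10 (1.01) added, and an equal sum over the listed genes did the same (1.19, 1.10 and 1.07). Pcdhb3 is also called there without AD 72 h replicate 3 (1.11). Without OS 3 h replicate 3, Pcdhb10 lost its call at 3 h (-0.89), as it does without OS 3 h replicate 2 (-0.72) or control replicate 2 (-0.78), and Pcdhb2 gained one (-1.29). Pcdhb7 lost its call there without control replicate 3 (-0.97) or OS 3 h replicate 1 (-0.94). The adipocyte marker sum in OS also moved, from 721.8, 663.9 and 778.1 CPM at 0 h to 268.3, 284.1 and 274.3 CPM at 3 h. It was 105.6, 122.4 and 129.9 CPM at 12 h and 1146, 1041 and 1145 CPM at 72 h. Lpl was called lower in OS at 3 h (-1.40) and 12 h (-2.60), and at all 3 times in CH. The part of these markers in the falls of the clustered protocadherins was not tested.

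Pcdhga9, of the gamma cluster, had the largest fall of these 15 genes in OS at 3 h. It was at 58.3, 60.6 and 56.7 CPM at 0 h, and in OS at 12.4, 14.2 and 12.3 CPM at 3 h, 18.5, 17.3 and 15.8 CPM at 12 h and 41.8, 49.8 and 48.7 CPM at 72 h. In AD it was at 22.2, 21.9 and 19.3 CPM at 3 h, 33.1, 42 and 40.1 CPM at 12 h and 75.3, 64.5 and 66.5 CPM at 72 h. In CH it was at 27.7, 18.1 and 26.4 CPM at 3 h, 40.3, 31.8 and 41.8 CPM at 12 h and 28.7, 46.2 and 46 CPM at 72 h. All samples at 3 and 12 h lay below the 3 samples at 0 h, and the AD samples at 72 h lay above them. The falls were -2.09 ± 0.17 (adjusted p = 1.52e-11) in OS at 3 h, -1.71 ± 0.17 (adjusted p = 6.94e-10) in OS at 12 h, -1.43 ± 0.17 (adjusted p = 3.44e-08) in AD at 3 h and -1.27 ± 0.17 (adjusted p = 2.64e-07) in CH at 3 h. The differences at 12 h in AD (-0.60) and CH (-0.62) and at 72 h in AD (0.23) were not called.

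Pcdhgb7, also of the gamma cluster, was at 38.5, 40.5 and 36.5 CPM at 0 h and at 14.4, 11.7 and 12 CPM in OS, 16.7, 17 and 16.1 CPM in AD and 14.5, 14.5 and 16.6 CPM in CH at 3 h. The groups at 3 h do not overlap with 0 h. At 12 h it was at 12.5, 8.22 and 12.3 CPM in OS, 25.3, 29.1 and 23.3 CPM in AD and 27.1, 22.8 and 23 CPM in CH. The 3 OS samples at 12 h lay below the other 6 samples of that time. The falls at 3 h were -1.53 in OS, -1.17 in AD and -1.29 in CH, and in OS at 12 h -1.74 ± 0.15 (adjusted p = 4.11e-11).

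Pcdha6, of the alpha cluster, was at 16.5, 10.7 and 10.9 CPM at 0 h, and in OS at 3.45, 2.84 and 4.43 CPM at 3 h, 1.66, 2.54 and 1.37 CPM at 12 h and 9.4, 11.2 and 10.6 CPM at 72 h. At 12 h it was at 6.88, 23.4 and 22.4 CPM in AD and 11.6, 9.35 and 10.6 CPM in CH. The OS samples at 3 and 12 h are below all samples at 0 h, while those at 72 h overlap with them, and AD 12 h replicate 1 is again the low sample of its group. The falls in OS were -1.57 ± 0.31 (adjusted p = 0.000141) at 3 h and -2.26 ± 0.31 (adjusted p = 5.51e-07) at 12 h. Pcdha6 also fell at 3 h in AD (-1.45) and CH (-1.22).

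Pcdhb20, of the beta cluster, was at 18.8, 20.6 and 17.6 CPM at 0 h and at 5.64, 7.74 and 3.6 CPM at 3 h, 3.77, 3.89 and 5.03 CPM at 12 h and 9.7, 17 and 12.7 CPM at 72 h in OS. All 9 OS samples lay below the 3 at 0 h, and the falls were -1.63 ± 0.25 (adjusted p = 3.38e-06) at 3 h and -1.94 ± 0.25 (adjusted p = 1.51e-07) at 12 h, with an uncalled -0.53 at 72 h. Pcdhb7 went the other way late in AD: it was at 3.58, 2.65 and 4.55 CPM at 0 h and 14.6, 8.87 and 11.4 CPM in AD at 72 h, a rise of 1.45 ± 0.34 (adjusted p = 0.00105) with no overlap. Pcdhb3 was at 2.15, 3.9 and 0.91 CPM at 0 h and 6.41, 8.84 and 8.67 CPM in CH at 72 h, a rise of 1.53 ± 0.38 (adjusted p = 0.00189). It is named here after its values were seen.

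**Figure D3:**
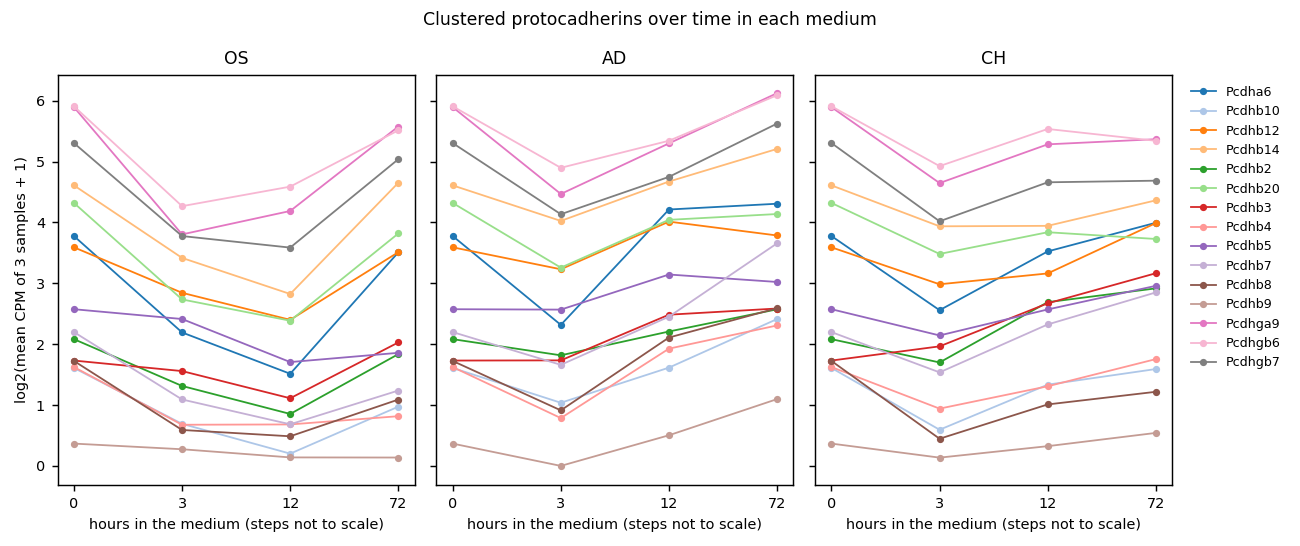
Log2(mean CPM + 1) of the 15 tested clustered protocadherins (lines) at 0, 3, 12 and 72 h, in 1 panel for each medium, with 3 samples behind each mean. Of the 15, 11 fell in OS at 12 h (median difference -1.32, 7.15% of all genes lower), while limma called 0 in AD at 12 h (5.55% of all genes lower and 8.14% higher), with 4 at an unadjusted p under 0.05 and 0 by edgeR, where the median of 0.13 turns to -0.06 with median-ratio scaling. Pcdhb3 is called higher in AD at 12 h without AD 12 h replicate 1 (1.05) or control replicate 2 (1.07).

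Cldn1, the claudin that seals the epidermal barrier, had the largest rises of all members on log2(CPM + 1), an order that depends on the added 1. At 0 h it was at 0.859, 0.139 and 0 CPM, 7 reads in all, and in OS at 2.82, 2.37 and 3.04 CPM at 3 h, 32.4, 36.5 and 32.5 CPM at 12 h and 49.1, 36.8 and 36.9 CPM at 72 h. In AD it was at 2.76, 2.05 and 2.83 CPM at 3 h, 23, 0.921 and 3.52 CPM at 12 h and 4.27, 7.27 and 1.74 CPM at 72 h. In CH it was at 1.5, 3.08 and 3.44 CPM at 3 h, 3.9, 3.12 and 5.39 CPM at 12 h and 1.54, 1.99 and 2.45 CPM at 72 h. Every sample with a medium lay above the highest sample at 0 h, and the 6 OS samples at 12 and 72 h lay above all others. The rises in OS were 1.54 ± 0.50 (adjusted p = 0.0133) at 3 h, 4.76 ± 0.50 (adjusted p = 2.72e-09) at 12 h and 5.02 ± 0.50 (adjusted p = 2.16e-09) at 72 h. In AD and CH the called rises lay between 1.46 and 2.21, and the difference in CH at 72 h, 1.21 ± 0.50 (adjusted p = 0.0557), was not called, though it is with median-ratio scaling (1.26, adjusted p = 0.0393) and without control replicate 1 (1.48, adjusted p = 0.0414).

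The early calls of Cldn1 lean on few reads. In OS at 3 h the call is lost without control replicate 3 (1.36, adjusted p = 0.0597). In AD at 3 h it is lost without control replicate 2 (1.37) or 3 (1.28), or without AD 3 h replicate 1 (1.41) or 3 (1.40). In CH at 3 h it is lost without control replicate 2 (1.39) or 3 (1.29), or without CH 3 h replicate 2 (1.38) or 3 (1.31). The AD group at 12 h spreads widely: its rise of 2.21 is 1.20 without AD 12 h replicate 1 and 3.02 without replicate 2, called each time, and it is not called with only the 6 samples of the comparison (adjusted p = 0.133).

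Cldn15 encodes a claudin that forms channels for cations in the gut. Control samples had it at 23.8, 21 and 23.8 CPM, and in AD at 10.6, 10.4 and 11.9 CPM at 3 h, 49.6, 64.8 and 60.7 CPM at 12 h and 129, 142 and 10.9 CPM at 72 h. In CH it was at 20.1, 25.2 and 18.4 CPM at 3 h, 22.7, 19.3 and 18.9 CPM at 12 h and 7.95, 5.08 and 6.45 CPM at 72 h. The CH samples at 72 h lay below 0 h, and AD 72 h replicates 1 and 2 lay far above it, while AD 72 h replicate 3 lay below it. The fall in CH at 72 h was -1.69 ± 0.48 (adjusted p = 0.00535). The rise in AD at 12 h was 1.31 ± 0.48 (adjusted p = 0.0322), a call lost with median-ratio scaling (1.06, adjusted p = 0.0798), without the filter (adjusted p = 0.0864), without AD 12 h replicate 2 (1.23) or 3 (1.28) and without any of the control replicates (1.34, 1.25 and 1.34). The rise in AD at 72 h, 1.35 ± 0.48 (adjusted p = 0.0267), is 2.52 (adjusted p = 2.53e-11) without AD 72 h replicate 3. It is not called without AD 72 h replicate 1 (0.79) or 2 (0.73), without any of the control replicates (1.37, 1.29 and 1.38), without the filter (adjusted p = 0.0675) or with only the 6 samples of the comparison (adjusted p = 0.365). In AD at 3 h all samples lay below 0 h, with a difference that limma did not call (adjusted p = 0.093) and that is called lower with median-ratio scaling (-1.23), an equal sum over the listed genes (-1.18) and edgeR (-1.27). In OS it was at 18.2, 12 and 22.6 CPM at 3 h, 9.94, 12.6 and 7.62 CPM at 12 h and 52.4, 52.3 and 52.4 CPM at 72 h. The OS samples at 12 h all lay below 0 h and those at 72 h all above it. Neither difference was called by limma, with -1.14 at 12 h (adjusted p = 0.0525) and 1.16 at 72 h (adjusted p = 0.0684). edgeR called each (-1.46 and 1.05), as did limma with only the 6 samples of the comparison, and the scalings called the former (-1.45 and -1.48). Cldn11, which forms tight junctions of myelin, was at no more than 1.88 CPM in any sample and was not called against 0 h in the test on log2(CPM + 1) of all samples. With a pseudocount of 0.1 it is called higher in OS (2.44, adjusted p = 0.0117) and AD (2.10, adjusted p = 0.0291) at 3 h. In OS at 3 h its difference of 0.99 is 1.11 and called without OS 3 h replicate 3 (adjusted p = 0.00181), and 1.15 and called without control replicate 1.

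Gja1 encodes connexin 43, the main gap junction protein of stromal and bone cells, and it was lower than 0 h in each medium. At 0 h it was at 936, 888 and 1080 CPM, and in OS at 308, 256 and 148 CPM at 3 h, 389, 374 and 391 CPM at 12 h and 425, 359.5 and 361 CPM at 72 h. In AD it was at 539.6, 559.5 and 594 CPM at 3 h, 696, 739.7 and 709.7 CPM at 12 h and 507, 526 and 232 CPM at 72 h. In CH it was at 291, 308 and 300.2 CPM at 3 h, 258, 272 and 283 CPM at 12 h and 161, 167 and 152 CPM at 72 h. All 27 samples with a medium lay below the lowest of the 3 at 0 h. The falls in OS were -2.08 ± 0.20 (adjusted p = 9.44e-10) at 3 h, -1.32 at 12 h and -1.34 at 72 h. In CH they were -1.68 at 3 h, -1.83 at 12 h and -2.58 ± 0.20 (adjusted p = 9.2e-12) at 72 h. In AD the differences at 3 h (-0.77) and 12 h (-0.43) were not called, though the former is -1.02 and called with median-ratio scaling. The fall in AD at 72 h, -1.29 ± 0.20 (adjusted p = 7.51e-06), is -0.90 and not called without AD 72 h replicate 3.

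Gjb2 encodes connexin 26, a channel of the inner ear and skin. It was at 7.02, 4.6 and 5.31 CPM at 0 h, and in OS at 9.09, 8.37 and 5.39 CPM at 3 h, 1.66, 1.2 and 2.89 CPM at 12 h and 0.448, 0.468 and 0 CPM at 72 h. At 72 h it was at 0, 0.177 and 0.158 CPM in AD and 8.97, 12.4 and 9.34 CPM in CH. The OS and AD samples at 72 h are at or near the floor, and the CH samples lie above 0 h. Gjb2 fell in OS at 12 h, -1.21 ± 0.26 (adjusted p = 0.000336), in OS at 72 h, -2.35 ± 0.26 (adjusted p = 2.65e-08), and in AD at 72 h, -2.57 ± 0.26 (adjusted p = 3.46e-09). In reads, the level at 0 h was 18.6 times that in OS at 72 h (95% interval 8.27 to 51.6) and 49.5 times that in AD at 72 h (13.4 to 414). The difference in CH at 72 h was 0.76 and not called.

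Comparisons between media at the same time ask where the lineages differ, and use no control sample. At 3 h OS against AD had 2 members lower and 0 higher by limma, against 4.88% of all genes lower and 2.77% higher, with 10 members at an unadjusted p under 0.05 and 2 lower and 0 higher by edgeR. The 2 were Pcdh20, -1.39 ± 0.29 (adjusted p = 0.000663), and Gja1, -1.31 ± 0.20 (adjusted p = 1.7e-05), with OS samples below AD samples. The Pcdh20 call is lost in limma with only the 6 samples of the comparison (adjusted p = 0.0596). OS against CH also had 2 lower and 0 higher by limma, against 5.07% and 2.25%, with 11 at an unadjusted p under 0.05 and 1 lower and 0 higher by edgeR. They were Pcdh20, -1.22 ± 0.29 (adjusted p = 0.00249), and Cdh3, -1.05 ± 0.28 (adjusted p = 0.00718), whose groups overlap and which is named after its values were seen. The Pcdh20 difference from CH is -0.98 and not called without OS 3 h replicate 3. That of Cdh3 is not called without OS 3 h replicate 1 (-0.72) or 2 (-0.97) or CH 3 h replicate 1 (-0.95) or 3 (-0.99). The count of 2 is 1 on leaving out any of the 3 OS replicates or CH replicate 1 or 3, and 3 on leaving out CH replicate 2. CH against AD had 1 higher and 0 lower by limma, against 5.13% and 4.22%, with 3 at an unadjusted p under 0.05 and 0 in either direction by edgeR. It was Cdh3, 1.03 ± 0.28 (adjusted p = 0.00706), a call lost without AD 3 h replicate 2 (0.86), CH 3 h replicate 1 (0.93) or CH 3 h replicate 3 (0.97), which leaves a count of 0, and lost with either scaling.

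At 12 h OS stood apart from both other media. Against AD, 18 members were lower in OS and 3 higher, against 6.17% of all genes lower and 6.99% higher, with medians of -1.12 for members and 0.03 for all genes. Of the 15 clustered protocadherins, 13 were lower (median -1.40), with edgeR also calling 13. Those higher in OS were Cldn1, 2.55 ± 0.50 (adjusted p = 0.000159), Itgb7, 2.18 ± 0.29 (adjusted p = 7.14e-07), and Itgb1, 1.31 ± 0.12 (adjusted p = 6.67e-10). The Cldn1 difference is 3.56 without AD 12 h replicate 1 and 1.74 without AD 12 h replicate 2, and it is not called with only the 6 samples of the comparison (adjusted p = 0.0858). Among those lower were Pcdha6, -2.55 ± 0.31 (adjusted p = 1.63e-07), Cldn15, -2.44 ± 0.48 (adjusted p = 0.000154), and Pcdh20, -2.35 ± 0.29 (adjusted p = 1.28e-07). Without AD 12 h replicate 1 the counts were again 18 and 3.

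Against CH at 12 h, 13 members were lower in OS and 3 higher, against 7.08% of all genes lower and 8.87% higher, with medians of -0.81 and 0.00. Of the clustered protocadherins 9 of 15 were lower (median -1.09), among them Pcdha6, -2.03 ± 0.31 (adjusted p = 4.94e-06), and Pcdhb2, -1.86 ± 0.36 (adjusted p = 0.000124). Pcdhb2, of the beta cluster, was at 0.904, 0.299 and 1.22 CPM in OS and 5.2, 4.52 and 6.65 CPM in CH, with no overlap. Cldn1 was higher in OS by 2.78 ± 0.50 (adjusted p = 3.97e-05) and Itgb7 by 2.62 ± 0.29 (adjusted p = 1.74e-08). Cdh6 had 0 reads in the 3 OS samples, so that its level was at least 5.77-fold lower than in CH. The filter limit on Cdh6 holds here as well.

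CH against AD at 12 h had 5 members lower in CH and 1 higher, against 6.56% of all genes lower and 7.04% higher, and edgeR called 6 lower and 3 higher. Cdh6 was higher in CH by 1.69 ± 0.22 (adjusted p = 2.77e-07), again in part through the filter. Lower were Cdh23, -1.76 ± 0.35 (adjusted p = 0.000181), Gja1, -1.40 ± 0.20 (adjusted p = 2.54e-06), and Cldn15, -1.48 ± 0.48 (adjusted p = 0.0177). The Cldn15 call is lost without AD 12 h replicate 2 (-1.40, adjusted p = 0.0582), CH 12 h replicate 2 (-1.44) or CH 12 h replicate 3 (-1.43). The split of 5 lower and 1 higher depends on the libraries: it is 7 and 2 without AD 12 h replicate 1, 3 and 1 without CH 12 h replicate 2, and 3 and 3 without CH 12 h replicate 3. Pcdh1, at -1.05, lost its call without AD 12 h replicate 1 (-0.58) and without CH 12 h replicate 2 (-0.99) or 3 (-0.99).

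At 72 h OS differed from AD in 10 members, 5 lower and 5 higher, against 4.52% of all genes lower and 9.21% higher. Each scaling gave 10 lower and 5 higher, and edgeR 11 and 5. Among those higher in OS were Itgb1, 1.71 ± 0.12 (adjusted p = 4.44e-12), Cldn1, 3.08 ± 0.50 (adjusted p = 1.17e-05), Pcdh1, 1.73 ± 0.37 (adjusted p = 0.000421), and Itgb7 (1.63). The 5 lower were clustered protocadherins, with Pcdhb7 at 2.24, 0.936 and 0.904 CPM in OS and 14.6, 8.87 and 11.4 CPM in AD. Its 3 OS samples lay below the 3 AD samples, a difference of -2.44 ± 0.34 (adjusted p = 1.34e-06), and Pcdhb8 differed by -1.60 ± 0.32 (adjusted p = 0.000195). Without AD 72 h replicate 3 the counts were 7 lower and 5 higher, with Cdh11 (-1.04) and Cldn15 (-1.36, from -0.18) added.

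OS against CH at 72 h had 9 members lower in OS and 7 higher, against 11.1% of all genes lower and 8.55% higher. Lower were Itga10, -3.14 ± 0.23 (adjusted p = 1.09e-12), Gjb2, -3.11 ± 0.26 (adjusted p = 4.57e-11), and Cdh11, -2.11 ± 0.16 (adjusted p = 4.9e-12). Higher were Cldn1, 3.81 ± 0.50 (adjusted p = 2.53e-07), Cldn15, 2.85 ± 0.48 (adjusted p = 1.29e-05), and Pcdh1, 2.37 ± 0.37 (adjusted p = 5.43e-06). In each of these the 3 OS samples lay on 1 side of the 3 CH samples. Itga10 entered the test only through CH at 72 h, so this difference too follows in part from the filter. Gja1 was also higher in OS than in CH, by 1.24 ± 0.20 (adjusted p = 1e-05), although it was below 0 h in each.

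CH against AD at 72 h had 4 members lower in CH and 5 higher, against 9.01% of all genes lower and 16.5% higher. Median-ratio scaling gave 9 lower and 5 higher, an equal sum over the listed genes 12 and 4, with the median of all genes moved from 0.08 to -0.25, and edgeR 8 and 5. Higher in CH were Gjb2, 3.33 ± 0.26 (adjusted p = 7.08e-12), Itga10, 3.31 ± 0.23 (adjusted p = 2.5e-13), Cdh6, 2.67 ± 0.22 (adjusted p = 1.12e-11), Cdh13, 1.63 ± 0.37 (adjusted p = 0.00042), and Cdh11, 1.42 ± 0.16 (adjusted p = 1.35e-08). Cdh13, the cadherin anchored by a lipid rather than a transmembrane stretch, was at 0.513, 4.64 and 3.11 CPM in CH and had 1 read in all in AD. The filter limits on Itga10 and Cdh6 hold here as well, and Cdh11 is 0.92 and not called with an equal sum over the listed genes. Lower in CH were Cldn15, -3.03 ± 0.48 (adjusted p = 3.61e-06), Cdh23, -2.19 ± 0.35 (adjusted p = 4.59e-06), Pcdhb8 (-1.36) and Gja1 (-1.30). The Cldn15 difference is -4.21 without AD 72 h replicate 3 and -2.41 without AD 72 h replicate 2, called each time, and the counts without replicate 3 were 5 lower and 5 higher.

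Genes that work beside these families were read from 8 lists. Of 25 focal adhesion adaptors, which link integrins to actin, 11 were tested. Vcl, the gene of vinculin, was at 8.02, 5.29 and 10.6 CPM at 0 h and 2.34, 1.66 and 2.77 CPM in AD at 12 h, and it fell at all 3 times in AD (-1.01, -1.43 and -1.14) and in CH at 72 h (-1.46). Pxn (paxillin) rose in OS at 3 h (1.60) and 72 h (1.15) and in AD at 3 h (1.06), and Tns1 (tensin 1) in OS at 72 h (1.22) and in CH at 3 h (1.37) and 12 h (1.05). In AD at 72 h, 3 of the 11 fell by limma, against 9.08% of all genes lower, with a median of -0.36, and edgeR called 3 lower and 3 higher.

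Of 28 integrin ligands, 11 were tested, and limma counts follow. In CH 4 rose at 3 h (13.1% of all genes higher), 5 rose at 12 h (9.44%), and 5 rose and 2 fell at 72 h (11.6% higher and 6.37% lower). In AD 3 fell at 3 h (6.42% of all genes lower), 2 at 12 h (5.55%) and 6 at 72 h (9.08%). In OS 1 rose and 1 fell at 3 h, 1 rose and 2 fell at 12 h, and 1 rose and 3 fell at 72 h, where 11.7%, 14.7% and 7.2% of all genes were higher and 6.67%, 7.15% and 5.29% lower. With edgeR, 1 rose and 5 fell in AD at 72 h, and 3 rose and 1 fell in CH at 3 h. Of those named here, Tgfbi, Lama1 and Lama5 tie at 4 calls each and were kept together after their values were seen. Tgfbi, a matrix protein that binds integrins, was at 14.5, 13.7 and 16.2 CPM at 0 h and 1616, 1559 and 1485 CPM in CH at 72 h, a rise of 6.62 ± 0.30 (adjusted p = 2.79e-17), after rises in CH at 3 h (1.94) and 12 h (3.40), and it fell in AD at 72 h (-2.16). Every CH sample at 72 h was above every sample at 0 h. Ctgf, a matricellular ligand, rose in OS at 3 h (1.12) and in CH at 3 h (1.95), 12 h (1.16) and 72 h (1.07), and fell at all 3 times in AD (-2.32 at 12 h). The rise of Ctgf in OS was not called by edgeR. Cyr61, of the same family, was at 458, 495 and 520 CPM at 0 h and 47, 13.6 and 16.8 CPM in AD at 12 h, a fall of -4.40 ± 0.29 (adjusted p = 3.63e-13), and it also fell in AD at 3 h (-2.98) and 72 h (-2.04) and in OS at 12 h (-1.26) and 72 h (-1.26). Lama1, a basement membrane laminin, was at 4.01, 6.13 and 3.64 CPM at 0 h and 222, 217 and 214 CPM in CH at 72 h, a rise of 5.31 ± 0.31 (adjusted p = 7.23e-15), and it also rose in CH at 12 h (2.54) and fell at 72 h in OS (-2.39) and AD (-1.57). Lama5, another laminin gene, fell at 72 h in AD, -4.82 ± 0.18 (adjusted p = 3.44e-19), and in CH (-2.64), and rose in OS at 12 h (1.84) and in CH at 3 h (1.07).

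Of 13 partners of adherens junctions, 4 were tested. Nectin4, which joins cells beside cadherins, had 0 reads in the 3 samples at 0 h and rose in OS at 3 h (1.75) and in CH at 3 h (2.21) and 72 h (1.99), while Ctnna1, the alpha catenin behind cadherins, fell at 72 h in AD (-1.25) and CH (-1.03). Of 15 tight junction partners, 3 were tested, and the junctional adhesion molecule genes F11r and Jam2 both rose at 72 h in OS and CH, F11r by 1.58 and 2.81. Jam2 was at 0.43, 0 and 0 CPM at 0 h and 30.8, 25.2 and 29.8 CPM in CH at 72 h, with no overlap, a rise of 4.71. Of 12 desmosome genes only Dsp, the gene of desmoplakin, was tested. It was at 2.72, 1.11 and 0.607 CPM at 0 h and 14.3, 12.7 and 13.7 CPM in OS at 12 h, a rise of 2.64 ± 0.38 (adjusted p = 9.48e-07), and it also rose at 3 h in all 3 media and in CH at 12 h (1.30). The rise of Dsp in OS at 3 h (1.16) was not called by edgeR. Of 3 pannexins Panx2 was tested, and it rose in AD at 72 h.

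Of 12 regulators of cadherin and claudin genes, 4 were tested. Snai2, a repressor of epithelial cadherin, was at 7.59, 5.85 and 7.88 CPM at 0 h and at 72 h at 170.2, 171 and 178 CPM in OS, 257, 257 and 298 CPM in AD and 99, 74.7 and 78.5 CPM in CH. All 9 samples at 72 h lay above 0 h, and the rises were 4.43 ± 0.28 (adjusted p = 1.18e-13), 5.07 ± 0.28 (adjusted p = 3.82e-15) and 3.39 ± 0.28 (adjusted p = 2.59e-11). Snai2 also rose in AD at 3 h (1.36) and 12 h (2.64) and in CH at 3 h (1.13), the last not called by edgeR. In OS it was not called at 3 or 12 h. Klf4, an activator of epithelial genes, rose in OS at 3 h (1.64), 12 h (2.11) and 72 h (1.68) and in AD at 3 h (1.73). Zeb1, another repressor, fell in AD at 3 h (-1.21). Of 16 adhesion genes of the immunoglobulin family, 4 were tested. Ncam1, the neural cell adhesion molecule, rose at all 3 times in OS (2.53, 1.07 and 1.96) and CH (1.71, 1.54 and 1.57). Cadm4 rose in 6 groups and fell in AD at 72 h (-1.58), and Thy1 fell at 72 h in OS (-1.12), AD (-4.24) and CH (-1.76).

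Promoters of the clustered protocadherins are shown because 9 of the 15 tested fell in OS at 3 h and 11 at 12 h, beside 6.67% and 7.15% of all genes lower. Of the 15 tested, 12 have a promoter in the RefSeq table for build GRCr8, 300 bases from 250 before to 50 after the gene's start, and Pcdha6, Pcdhgb6 and Pcdhgb7 have none. As background, clustered protocadherin promoters are known to hold a conserved element with the core CGCT. The longest word that at least 11 of the 12 share, chosen from these promoters themselves, is GGTGGCGCTG (searched with its reverse complement CAGCGCCACC). It is in 11 of the 12, on the strand of the gene, and not in that of Pcdhga9. The 11 are all of the beta cluster. Of them, Pcdhb2 and Pcdhb12 fell in OS at 12 h only in the test of all samples. Pcdhb3, Pcdhb4, Pcdhb5 and Pcdhb9 were called in OS at neither 3 nor 12 h in that test. Pcdhb9, at 0.716, 0 and 0.152 CPM at 0 h, was too low to fall by 1 on log2(CPM + 1). Its missing call against 0 h therefore does not set it apart from those that fell. The word is not shared by the clusters at large, since 4 of the 23 promoters of other clustered protocadherins hold it. Among all 33469 promoters, 74 hold it (0.221%), of which 59 lie outside the clusters, and 0 of the 14 promoters of other tested members do. The windows of 40 bases below are from chromosome 18, + strand, 5′ to 3′, with the word in capitals: Pcdhb7 at chr18:29328993-29329032, Pcdhb8 at chr18:29339253-29339292, Pcdhb10 at chr18:29391773-29391812, Pcdhb14 at chr18:29431804-29431843 and Pcdhb20 at chr18:29485805-29485844, which fell in OS at 3 and 12 h in the test of all samples, and Pcdhb9 at chr18:29379243-29379282, which limma did not call in any comparison. For OS against AD at 72 h Pcdhb9, at -0.96, is called lower with edgeR (-3.57), a pseudocount of 0.1 (-2.75), median-ratio scaling (-1.15) and an equal sum over the listed genes (-1.20). Pcdhb9 reached 1 CPM only in AD and CH samples at 72 h, so this difference follows in part from the filter. A match is a description, not a site or a cause.
Pcdhb7: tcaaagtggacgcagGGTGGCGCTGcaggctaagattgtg
Pcdhb8: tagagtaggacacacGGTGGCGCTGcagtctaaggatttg
Pcdhb10: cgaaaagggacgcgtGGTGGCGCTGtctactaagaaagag
Pcdhb14: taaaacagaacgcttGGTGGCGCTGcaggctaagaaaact
Pcdhb20: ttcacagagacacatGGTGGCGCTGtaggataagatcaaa
Pcdhb9: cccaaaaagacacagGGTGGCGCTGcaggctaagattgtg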

How the data were processed

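RNA of 30 samples in 10 groups was sequenced. The deposited files are named FPKM, but their values are CPM: the authors' values are whole multiples of 1 step per sample (100% within 0.01 reads), from which reads were recovered. The labels name Trimmomatic, HISAT2 and StringTie without versions, and the genome build is not given. The labels describe ribosomal RNA removal and strand-specific libraries, and the methods an mRNA kit. Entries of the same name were summed, and the samples were pools of 3 cultures, so p-values measure the spread between pools.

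The test was limma 3.58.1 (R 4.3.3, trend) on log2(CPM + 1), 1 model of 10 groups, on genes that reached 1 CPM in 3 samples or more, with Benjamini-Hochberg adjustment over all 4363 genes. Called means an absolute log2 difference of at least 1 and adjusted p under 0.05. Tables came from pandas 2.3.3, scipy 1.17.1 and numpy 2.4.6 under Python 3.11.15, and figures from matplotlib 3.10.9. Members and lists were chosen with earlier results of these data known. Named genes are the 3 largest rises and falls against 0 h and the 2 largest differences each way between media, among called members whose groups do not overlap, plus Itgb1, Itgav, Itga5, Itga11, Cdh2, Cdh11, Gja1 and Tjp1. From each list at most 3 genes called most often were named, except a tie among integrin ligands. Other genes were named after their values were seen. Alternatives were a pseudocount of 0.1, no filter, median-ratio scaling, an equal sum over listed genes, only the 6 samples compared, a replicate block, edgeR 4.0.16 (quasi-likelihood, TMM) and each replicate left out. Ratios of reads with exact conditional binomial 95% intervals were added after seeing the data, for groups of at most 3 reads a library.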

Additional observations from a re-analysis of the deposited data

Results flagged for a closer look

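Cldn15 had opposite differences from 0 h in chondrogenic and adipogenic medium at 72 h. The fall in CH against 0 h was -1.69 on log2(CPM + 1) and the rise in AD was 1.35, which is not called without AD 72 h replicate 1 (0.79) or 2 (0.73). The test of the difference itself, CH against AD in limma, gave -3.03 (SE 0.48, adjusted p = 3.61e-06). All 3 CH samples lay below the 3 control samples, and 2 of the 3 AD samples lay above them. AD 72 h replicate 3, at 10.9 CPM, lay below them, and without it the difference was -4.21 (adjusted p = 5.94e-17). The comparisons share the 3 control samples.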

How the results depend on the processing

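Over 90 named differences and 1170 recomputed values, 1131 kept direction and side of the threshold, 32 lost the call, 1 gained it and 6 turned sign. Those 6 are uncalled values: Itgb1 in CH at 3 h (-0.12 with median-ratio scaling, -0.02 with an equal sum, -0.06 with edgeR) and Cdh11 in OS at 3 h (-0.10, -0.12 and -0.03). The 90 leave out other differences in the text whose calls were lost under several alternatives, as given with them. Among these are Cldn15 in AD at 12 and 72 h, Itgax in CH at 3 h and Cdh3 in CH at 12 h against 0 h. The member count in OS at 72 h against 0 h, 7, became 11 with a pseudocount of 0.1 and 13 with edgeR. OS against AD at 3 h went from 2 to 1 with only the 6 samples compared. OS against CH at 3 h went from 2 to 1 with median-ratio scaling, with the 6 samples and with edgeR, and leaving out each replicate gave 1 to 3. CH against AD at 3 h went from 1 to 0 with a pseudocount of 0.1, either scaling and edgeR, and leaving out each replicate gave 0 to 1. OS against AD at 72 h went from 10 to 16 with edgeR, and CH against AD at 72 h from 9 to 14 with median-ratio scaling and 16 with an equal sum. The cause was not tested. With the replicate block, the counts were those of the main model in all 18 comparisons, for example 13 in OS at 3 h and 21 for OS against AD at 12 h. For OS at 3 h edgeR called 500 genes higher and 510 lower, and limma 510 and 291. Depth limits members near the floor of 3 reads, listed genes hold only part of each library, and pools from 3 rats do not show variation between animals.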
